A study of Arabidopsis thaliana with 47 samples.

Results

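The WUSCHEL-related homeobox (WOX) genes described here are WUS (AT2G17950), WOX2 (AT5G59340), WOX4 (AT1G46480), WOX5 (AT3G11260), WOX8 (AT5G45980), WOX9 (AT2G33880), WOX11 (AT3G03660), WOX12 (AT5G17810), WOX13 (AT4G35550) and WOX14 (AT1G20700) of Arabidopsis thaliana. They were picked by locus identifier, taking the lowest-numbered splice variant of each, and are 10 of the 28197 loci listed in the count tables. WOX proteins are plant homeodomain transcription factors that mark and maintain stem cell niches. WUS does so in the organising centre of the shoot apical meristem, WOX5 in the quiescent centre of the root and WOX4 in the vascular cambium, while WOX2, WOX8 and WOX9 pattern the early embryo. WOX11 and WOX12 take part in the founding of new root primordia from cut leaves, and WOX13 and WOX14 belong to the oldest branch of the family. Several of them are read as signs that a differentiated plant cell has entered callus or meristem fate, which is why their course was followed in leaf protoplasts, cells freed of their walls and brought back to division in culture.

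All 47 RNA-seq libraries came from wild-type Columbia-0. Protoplasts were released from the early rosette leaves of plants aged 23 days, set in alginate gel and kept in the dark. The culture medium held 1 mg/L of 2,4-dichlorophenoxyacetic acid (2,4-D), a synthetic auxin, together with thidiazuron at 176 µg/L as cytokinin. The groups used were control cultures at Day 2, 4, 6 and 14, cultures with yucasin (an inhibitor of the auxin-producing YUCCA enzymes) at Day 4 and 6, cultures with MB-3 (an inhibitor of GCN5-type histone acetyltransferases) at Day 4, 6 and 14, cultures without 2,4-D at Day 4, freshly isolated protoplasts (Day 0) and intact leaves. The labels number the replicates but name no experiments. By replicate number the libraries were split here into 3 parts, called experiments below. These were replicates 1 to 3 (leaf, Day 0 and Day 14, 12 libraries), replicates 4 to 8 (Day 0 to Day 6, 26 libraries) and replicates 9 to 11 (Day 0 and Day 4 with and without 2,4-D, 9 libraries). Every test was run within its own experiment, apart from 1 comparison between experiments. Each library pools protoplasts or leaves of many plants, so a level is an average over dividing and non-dividing cells.

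Mapped reads ranged from 4.34 to 19.13 M per library, so that 3 reads were worth 0.123 to 0.825 CPM (counts per 1 M reads, TMM-scaled), and lower levels could not be told from 0. The mesophyll markers (4 genes, photosynthetic) summed to 1552 to 6966 CPM in Day 0 protoplasts, against 19839 to 51687 CPM in leaves. Markers of epidermis (3 genes) summed to 0.427 to 2.2 CPM at Day 0, against 142 to 197 CPM in leaves, those of guard cells (3 genes) to 1 to 2.83 against 55.7 to 94.2 CPM, and those of vasculature (6 genes) to 5.44 to 13.9 against 395 to 503 CPM. Among replicates 1 to 3, the leaf libraries, Day 0 replicate 3 and Day 14 control replicates 1 and 3 stood apart. Each held reads for 29.4% to 83.6% of 2169 loci, against 0.692% to 9.27% in the remaining libraries of that experiment. These loci were picked for having reads in replicates 1 to 3 and none in the other experiments, which held no leaf or Day 14 library. Genes expressed only in leaves or at Day 14 may therefore be among them. Over those loci the 95th percentile was 3, 13 and 5 reads in leaf replicates 1 to 3, 2 in Day 0 replicate 3, and 4 and 13 in Day 14 control replicates 1 and 3, so counts of this size for a WOX gene there could not be told from background. Libraries of the same group differed from each other by more than sampling noise (chi-square per degree of freedom 4.32 or more in 52 pairs). None was therefore the same library sequenced again. This measure cannot show whether separate libraries came from the same RNA.

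The WOX genes share a homeodomain of which the third helix reads the DNA. Its 36 bases are shown here for 9 of the genes because they set the WUS branch apart from the others. The sequences are those of the TAIR10.1 RefSeq annotation, read by locus in the coding direction, and the count files themselves carry no coordinates. The capitals mark the codons of the tryptophan, phenylalanine, glutamine and asparagine that these 9 genes share.
WUS: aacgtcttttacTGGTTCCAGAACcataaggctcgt
WOX2: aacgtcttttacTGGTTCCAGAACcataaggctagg
WOX4: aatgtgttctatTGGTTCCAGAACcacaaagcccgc
WOX5: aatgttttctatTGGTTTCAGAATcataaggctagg
WOX8: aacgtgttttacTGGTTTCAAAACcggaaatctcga
WOX9: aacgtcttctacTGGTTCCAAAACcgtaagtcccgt
WOX11: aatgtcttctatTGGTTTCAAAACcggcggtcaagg
WOX12: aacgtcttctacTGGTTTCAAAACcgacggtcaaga
WOX14: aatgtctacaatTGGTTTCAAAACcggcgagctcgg
The codon after the capitals stands for histidine in the 4 genes of the WUS branch (WUS, WOX2, WOX4 and WOX5), and for arginine in the 4 genes of the intermediate branch (WOX8, WOX9, WOX11 and WOX12) and in WOX14 of the ancient branch. WOX11 (chr3:889166-892229, minus strand) and WOX12 (chr5:5880424-5884770, minus strand), both of the intermediate branch, are shown over 180 bases of their homeobox because their levels moved apart in the cultures with MB-3. The capitals mark the 27 bases at which they differ, leaving 85% identity and 3 differing residues of 60.
WOX11: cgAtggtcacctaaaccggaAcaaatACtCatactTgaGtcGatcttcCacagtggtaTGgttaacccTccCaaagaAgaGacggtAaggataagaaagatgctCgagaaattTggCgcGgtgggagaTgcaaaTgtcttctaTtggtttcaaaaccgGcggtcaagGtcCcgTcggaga
WOX12: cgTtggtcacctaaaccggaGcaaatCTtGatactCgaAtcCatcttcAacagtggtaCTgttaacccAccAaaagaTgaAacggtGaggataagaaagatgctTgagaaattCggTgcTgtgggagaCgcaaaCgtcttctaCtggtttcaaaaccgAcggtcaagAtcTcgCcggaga
The longest stretch of mRNA that WOX11 and WOX12 share without a mismatch was 23 bases. Among all pairs of family genes it was 38 bases, between WOX2 and PRS (WOX3), a gene with no read in replicates 4 to 11.

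WOX2, which patterns the apical cells of the embryo, and WOX13 were the genes of the 10 with reads in all 11 Day 0 libraries. Over all 11 Day 0 libraries WOX2 averaged 4.49 ± 1.21 CPM (SD), and WOX13 averaged 17.3 ± 5.15 CPM. WUS, WOX8, WOX11 and WOX12 had no read in any of the 11 libraries. WOX9 had 2 reads in all, WOX14 had 3, WOX4 had 12 and WOX5 had 13. In these averages over many cells, fewer cells of a type and less RNA per cell cannot be told apart.

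Day 0 protoplasts and leaves were compared next, a contrast in which isolation and the loss of other leaf cell types cannot be told apart. Because leaves contain such cell types, the study itself made no quantitative comparison between the 2. None of the 8 WOX genes that passed the low-count filter met the thresholds of the study (log2 fold change beyond 2 in either direction, p and Benjamini-Hochberg adjusted p under 0.01, edgeR quasi-likelihood test), where 34.2% of 20205 loci did. At an unadjusted p under 0.05 there were 4, and 2 had an adjusted p under 0.05, as did 14089 of the 20205 loci. WOX2 had 3.19, 4.71 and 3.02 CPM in Day 0 libraries, against 0.828, 0.463 and 1.83 CPM in leaves, with no overlap (log2 fold change 1.74 ± 0.67 SE, adjusted p = 0.0347). WOX13 had 20.3, 6.83 and 19.5 CPM at Day 0, against 35.6, 51 and 18.5 CPM in leaves, and the groups overlapped (log2 fold change -1.24 ± 0.42, adjusted p = 0.018). Scaling by total counts moved the median of all loci in this comparison by -1.03, which put WOX13 (-2.33) and WOX4 (-2.45) past the thresholds and brought WOX2 to 0.77. DESeq2 called WOX11 alone (-3.73). The leaf reads of WUS (0, 7 and 3), WOX11 (1, 9 and 3) and WOX12 (1, 7 and 2) lay within the background of those libraries, as did those of WOX9 (4, 12 and 5) but for 1 read in leaf replicate 1.

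The control cultures from Day 0 to Day 6 showed which WOX genes came on as protoplasts reentered the cell cycle, and in which order. WOX2 was already lower at Day 2, and WOX11, WOX4 and WOX5 came up by Day 4. WOX8 and WOX14 were clear at Day 6, WOX14 after a few reads at Day 4. Of WOX12 and WUS there were traces at Day 6, too few to place them in an order. WOX13 was present throughout. At Day 2, 1 of 7 genes tested met the thresholds against Day 0 (23.2% of all loci did), at Day 4 it was 4 of 7 (38.4% of all loci) and at Day 6 all 7 (43.8% of all loci). WOX11, WOX12 and WOX14 had no read in these Day 0 libraries, and WOX4 and WOX5 had few. They passed the low-count filter only through cultured groups and had little or no room to fall. These counts therefore cannot be weighed against the shares of all loci. WUS, WOX8 and WOX9 had too few reads in replicates 4 to 8 to be tested.

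**Figure D1:**
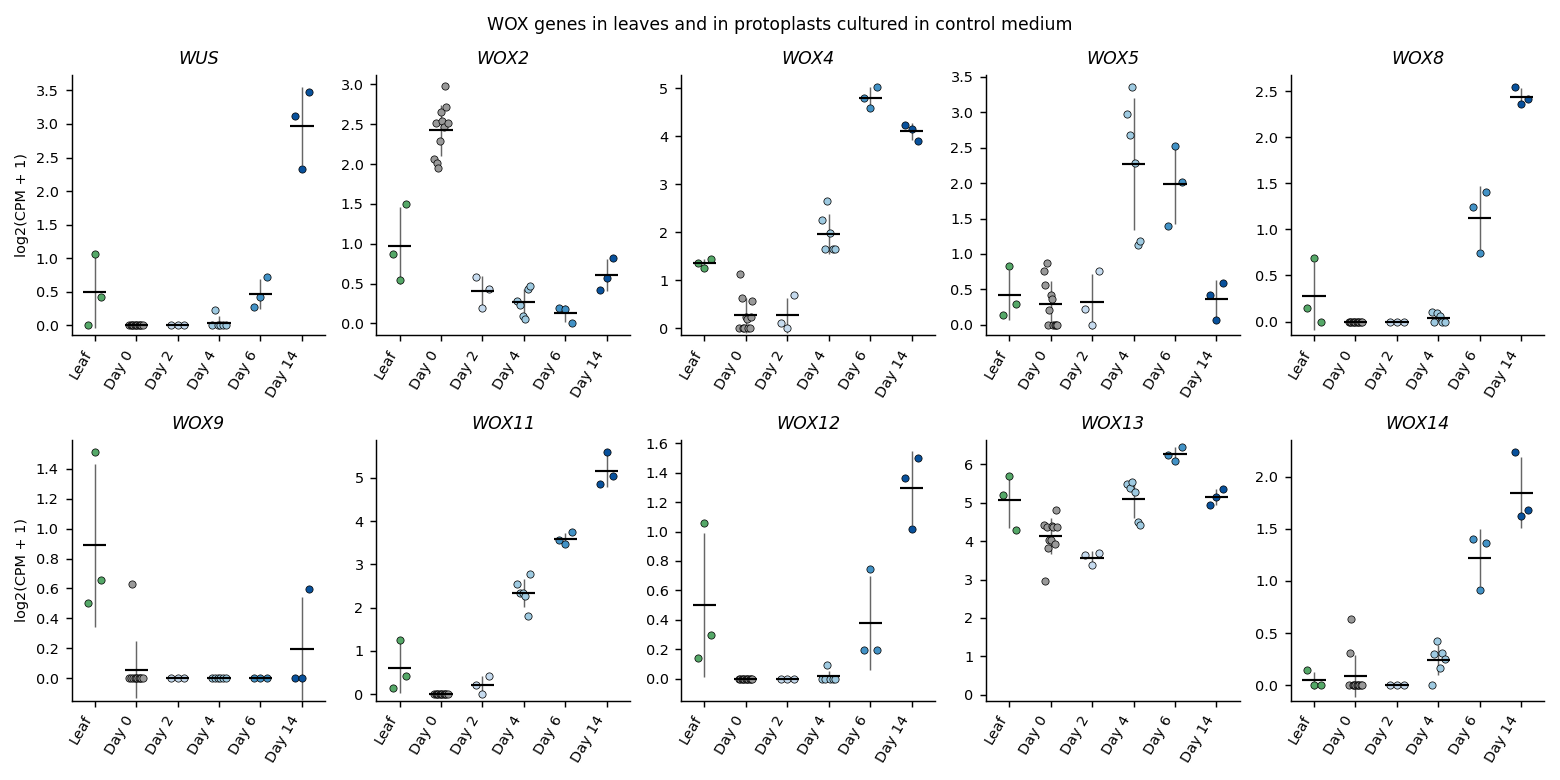
Level of each WOX gene, as log2(CPM + 1) on the vertical axis, in leaves and in control cultures from Day 0 to Day 14, with 1 point per library, the mean as a bar and the SD as a line. Each vertical axis has its own range. WOX2 is highest at Day 0 (mean 4.49 CPM over 11 libraries), WOX4 and WOX13 at Day 6 (27 and 75.7 CPM), and WUS, WOX8, WOX11, WOX12 and WOX14 at Day 14. WOX5 is highest at Day 4, where its points overlap those of Day 6.

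WOX2 had 0.494, 0.145 and 0.345 CPM at Day 2, against 2.85 to 5.29 CPM (median 4.5) in the 5 Day 0 libraries of the same experiment. Every cultured library was below every Day 0 library. The log2 fold change was -3.36 ± 0.47 at Day 2, -4.50 ± 0.49 at Day 4 and -5.11 ± 0.54 at Day 6 (adjusted p = 6.17e-07, 8.45e-09 and 3.89e-09 by edgeR).

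WOX11 and WOX12 act early in the switch from leaf cell to root founder cell, where auxin turns WOX11 on. WOX11 had no read at Day 0, then 2, 0 and 4 reads at Day 2, 66, 71 and 59 at Day 4 and 153, 148 and 174 at Day 6. In CPM it averaged 4.31 ± 0.465 at Day 4 and 11.1 ± 1.19 at Day 6 (SD, n = 3 each), at least 8.03-fold and at least 20.7-fold above a Day 0 level of 3 reads per library. Day 4 exceeded Day 2 (log2 fold change 4.39 ± 0.44, adjusted p = 1.56e-07), and 1 Day 2 library already had more than 3 reads. Against Day 0, Day 2 missed the thresholds narrowly (adjusted p = 0.0103), and met them under total-count scaling or with all splice variants summed (adjusted p = 0.00354 and 0.00202). The step to Day 6, 1.40 ± 0.24 (adjusted p = 2.13e-04), was under the fold threshold, although all Day 6 libraries lay above all Day 4 libraries. WOX12 behaved otherwise, with 0, 0 and 1 reads at Day 4 and 2, 10 and 2 reads at Day 6. The fit called it at Day 6 (adjusted p = 0.00252), but its mean there stayed below what 3 reads per library would give at Day 0. Without Day 6 replicate 7, which held 10 of the 14 reads, the adjusted p was 0.0163.

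WOX4 keeps cambium cells dividing, downstream of the receptor kinase PXY and its CLE41 and CLE44 peptide ligands. It had 2 reads in the 5 Day 0 libraries together and 1, 0 and 7 reads at Day 2. At Day 4 it had 3.75, 2.12 and 5.25 CPM and at Day 6 26.6, 22.9 and 31.6 CPM, with no overlap between days. The ratio to Day 0 was 52.6 at Day 4 (95% counting interval 14.3 to 438) and 393 at Day 6 (109 to 3250). Day 6 exceeded Day 4 by 2.91 ± 0.30 on the log2 scale (adjusted p = 3.54e-07). Vascular markers moved with WOX4: their sum was 8.57 to 11.6 CPM at Day 2, 41.2 to 65.7 CPM at Day 4 and 146 to 196 CPM at Day 6, and the 4 of 6 that could be tested were all higher at Day 6 than at Day 0 (SMXL5, SUC2, ATHB8 and PXY). The part of vascular-type cells in the WOX4 level was not tested.

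WOX5, the quiescent centre gene, had a different shape. It had 6.83, 5.38 and 9.28 CPM at Day 4 and 1.64, 4.74 and 3.06 CPM at Day 6, against 0 to 0.342 CPM at Day 0. The Day 4 controls of replicates 9 to 11 had 3.86, 1.18 and 1.26 CPM and overlapped these Day 6 values, so the Day 4 peak rests on replicates 4 to 6. It rose from Day 2 to Day 4 (log2 fold change 4.43 ± 0.52, adjusted p = 2.98e-07), and the later step down, -1.14 ± 0.35 (adjusted p = 0.0165), did not meet the thresholds. At Day 14 it stood at 0.338, 0.0445 and 0.51 CPM, at the level of the floor. WOX7, a WOX gene outside the set, had no read at Day 0 or Day 2 and 3 to 23 reads per library at Day 4 (called, adjusted p = 0.00233).

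WOX13 and WOX14 form the ancient branch. WOX13, which is expressed widely in the plant and takes part in callus formation and tissue repair, had 11.4, 9.41 and 11.9 CPM at Day 2, 43.5, 40.3 and 45 CPM at Day 4 and 73.9, 66.3 and 86.9 CPM at Day 6. It had reads in all 47 libraries. At Day 6 it exceeded Day 0 by 2.43 ± 0.16 (adjusted p = 9.56e-13). At Day 4 the log2 fold change was 1.57 ± 0.16 (adjusted p = 3.55e-09), under the fold threshold, and at Day 2 it was -0.40 ± 0.18 (adjusted p = 0.0486), a difference that turned to 0.41 under total-count scaling. The same scaling, which moved all loci by 0.97 at Day 4, put the Day 4 value past the fold (2.55). WOX14, which acts beside WOX4 in vascular tissue, had 0, 4 and 5 reads at Day 4 and 23, 13 and 22 reads at Day 6, against none at Day 0, at least a 2.54-fold rise at Day 6. It was not called at Day 4 against Day 0 in the main fit. Total-count scaling (adjusted p = 0.00368) and the replicate number as a block (0.00762) did call it. The step from Day 4 to Day 6 met the thresholds (2.76 ± 0.61, adjusted p = 0.00229) but lost them without Day 4 replicate 4 or 5 or Day 6 replicate 6 (adjusted p 0.011 to 0.0114). From Day 2 to Day 4, 3 of 7 genes were called (8.60% of loci), and WOX13 at 1.97 ± 0.19 missed by fold alone, which DESeq2 (2.06) and RLE size factors (2.06) reached. From Day 4 to Day 6 it was 2 of 7, WOX4 and WOX14 (3.43% of loci).

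WOX8 and WUS had no read at Day 0 or Day 2. WOX8, a gene of the basal embryo lineage, had 19, 10 and 23 reads at Day 6, at least 2.28-fold above the Day 0 floor and 27.8-fold above the 2 reads of Day 4 (counting interval 7.31 to 235). WUS had 3, 5 and 9 reads at Day 6 and 0, 3 and 0 at Day 4, a ratio of 6.05 (1.75 to 32.2). These intervals cover counting error only. With no filter on low counts, WOX8 and WUS were called at Day 6 against Day 0 as well (adjusted p = 8.12e-06 and 0.00285). The WUS level at Day 6 (0.214, 0.338 and 0.64 CPM) nonetheless averaged less than 3 reads per library would give at Day 0 (0.537 CPM).

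At Day 14 the control cultures held 7 WOX genes past the thresholds against Day 0, of 8 tested, where 34.0% of loci were called. WUS, WOX8, WOX11 and WOX12 had no read at Day 0, passed the low-count filter through other groups and could only be higher. The count therefore cannot be weighed against that share. WUS had 68, 91 and 238 reads at Day 14 (7.67, 4.05 and 10.1 CPM) and none at Day 0, at least a 9.86-fold difference. WOX11 had 248, 1063 and 749 reads (28, 47.4 and 31.8 CPM), at least 48.4-fold above Day 0. WOX8 was at least 6.02-fold higher, with 4.85, 4.14 and 4.33 CPM, and WOX12 at least 2-fold higher, with 1.58, 1.02 and 1.83 CPM. WOX4 had 17.9, 16.8 and 14 CPM, against 0, 1.18 and 0.55 CPM at Day 0 (4.87 ± 0.61, adjusted p = 1.2e-05). WOX14 was 9.85-fold higher (counting interval 3.3 to 48.4), with 33, 47 and 52 reads against 0, 1 and 2.

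WOX2 was the gene that was lower at Day 14, with 0.338, 0.49 and 0.765 CPM against 3.19, 4.71 and 3.02 CPM at Day 0 (-2.63 ± 0.68, adjusted p = 0.00374). WOX13 had 29.8, 34.1 and 40.2 CPM at Day 14, against 20.3, 6.83 and 19.5 CPM at Day 0 (1.24 ± 0.42, adjusted p = 0.0172), short of the fold threshold. Total-count scaling, which moved the median of all loci by 1.3, dropped WOX2 (-1.35, adjusted p = 0.0916) and added WOX13 (2.58), so that all 7 called genes were then higher, against 6 of 7 with TMM scaling. The calls of WOX2, WOX12 and WOX14 depended on single libraries. WOX2 was lost without Day 0 replicate 2 or Day 14 control replicate 1 or 2 (adjusted p 0.0141 to 0.019), and WOX14 without Day 0 replicate 1 or 2 or Day 14 control replicate 1 (0.0166 to 0.0206). WOX12 was lost without any Day 0 library or Day 14 control replicate 1 or 3 (0.0123 to 0.0216). WOX9 had 12 reads in Day 14 control replicate 3 and none in replicates 1 and 2, a count that could not be told from the background of that library. Against leaves, which hold other cell types as said above, 5 of 8 were called at Day 14 (20.3% of loci), all higher. WOX4 was at 3.39 ± 0.47 (adjusted p = 5.6e-05) and WOX14 had 132 reads against 1, a ratio of 59.8 (counting interval 10.6 to 2381). WOX11, WOX8 and WUS were called over leaf reads that could not be told from background, so no fold is given. The WUS call was lost without replicate 1 or 3 of every group (adjusted p = 0.0126 and 0.0379) and the WOX8 call without replicate 1 (0.011).

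The third experiment repeated the Day 4 cultures and asked how the WOX genes fared without the auxin in the medium. WOX4, WOX5 and WOX11 again rose by Day 4, and cultures without 2,4-D held 0 to 2 reads of each per library. WOX4 had 72, 18 and 22 reads at Day 4, 13.2-fold above the 3 reads of Day 0 (4.4 to 65). WOX5 had 94, 10 and 13 reads and WOX11 had 92, 21 and 61, against none at Day 0, at least 3.5-fold and at least 6.75-fold higher. WOX2 was lower, with 0.041, 0.354 and 0.386 CPM against 6.86, 5.56 and 4.71 CPM at Day 0 (-4.41 ± 0.76, adjusted p = 4.17e-04). With these 4 calls of 5 tested (35.1% of loci), the WOX genes were tested for a difference between the experiments, and none of the 9 with a fit passed by edgeR or DESeq2 (0.00474% of 21092 loci did by edgeR), with 1 at an unadjusted p under 0.05. WOX5 and WOX11, without a read at Day 0, could only rise, so the 4 of 5 cannot be weighed against the share of all loci. The WOX4 call rested on Day 0 replicates 9 and 10 and the WOX5 call on Day 0 replicate 10: without either of these libraries the adjusted p was 0.0105 to 0.014. The difference of WOX13 was -0.96 ± 0.40 (adjusted p = 0.462). WOX13 had 37.4, 21.5 and 20.5 CPM at Day 4 here, a change from Day 0 of 0.68 ± 0.29 (adjusted p = 0.053).

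Without 2,4-D, WOX5 and WOX11 had no read in any of the 3 libraries, against 1.18 to 3.86 CPM and 2.48 to 5.89 CPM in Day 4 controls, which put them at least 4.47-fold and at least 8.63-fold lower. WOX4 had 0, 0 and 2 reads, 26.5-fold lower than in controls (7.17 to 222). WOX13 had 5.96, 6.03 and 6.49 CPM, against 37.4, 21.5 and 20.5 CPM in controls (-2.17 ± 0.31, adjusted p = 0.00191), and the groups did not overlap. By the test, 3 of 5 genes were called (WOX4, WOX11 and WOX13, where 3.39% of loci were). WOX5 and WOX11 passed the low-count filter through the Day 4 controls alone and could only be lower here. WOX5 had an adjusted p of 0.0167, and it was called with the replicate number, which pairs these samples, as a block (adjusted p = 0.00886), with DESeq2 and with no filter on low counts. Day 4 control replicate 9 was the deepest of the 47 libraries (19.13 M), and without it WOX13 fell short of the fold (-1.84) and WOX4 and WOX11 had adjusted p of 0.0327 and 0.0163. Leaving out Day 4 control replicate 11 left 1 call, leaving out Day 4 control replicate 10 dropped WOX4 (adjusted p = 0.0217), and leaving out no-2,4-D replicate 10 or 11 left none, while no log2 fold change changed sign. Beside this, vascular markers summed to 3.03 to 5.39 CPM without 2,4-D, against 24.5 to 40.2 CPM in controls, and 3 of the 6 had no read. Their part in the WOX4 level was not tested.

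WOX2 was lower without 2,4-D as well. It had 0, 0.77 and 0.433 CPM, against 6.86, 5.56 and 4.71 CPM at Day 0 (-3.61 ± 0.76, adjusted p = 0.00216), and was the 1 gene of 5 called in that comparison (23.0% of loci). The call was lost without replicate 10 or 11 of every group (adjusted p = 0.0153 and 0.0273). Its level differed from Day 4 controls by 0.80 ± 0.98 (adjusted p = 0.553), an error too wide to call the media alike. WOX13 was at -1.49 ± 0.31 against Day 0 (adjusted p = 0.00192). WUS had 0, 5 and 2 reads and WOX12 had 1, 2 and 1 reads without 2,4-D, where the 3 Day 4 controls had none of either.

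**Figure D2:**
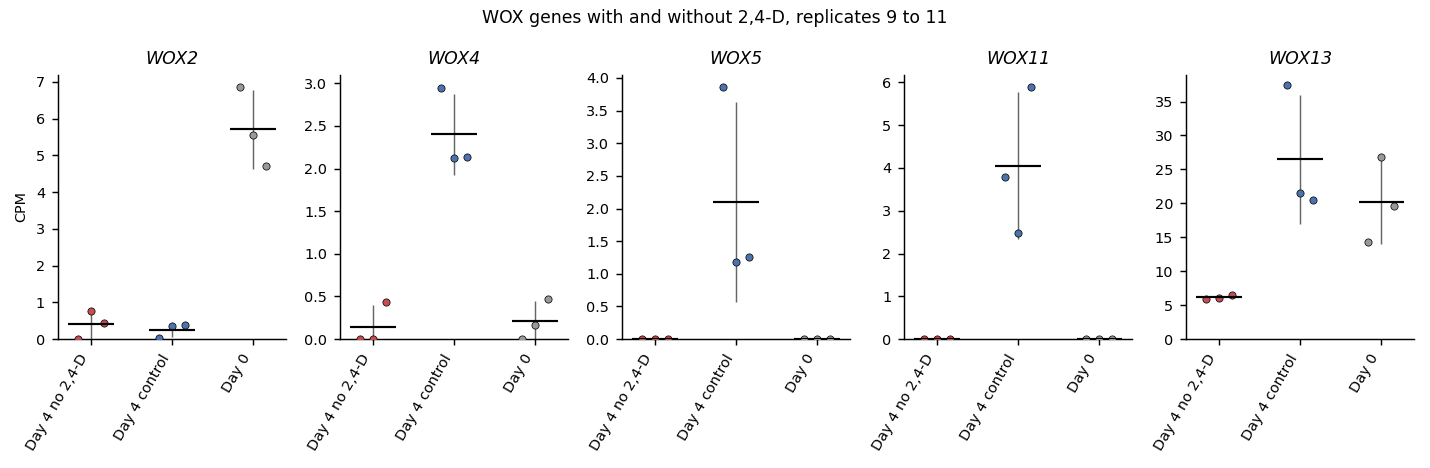
CPM (vertical axis) of 5 WOX genes in cultures without 2,4-D at Day 4, Day 4 controls and Day 0 protoplasts of replicates 9 to 11, with 1 point per library, the mean as a bar and the SD as a line. WOX5 and WOX11 are at 0 without 2,4-D, WOX4 is at 0 in 2 of 3 libraries, and WOX13 lies at 5.96 to 6.49 CPM, below all controls.

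Auxin response factors bind the hexamer TGTCTC, and the 250 bases before each WOX transcript start were searched for it on both strands, as well as for TGTCGG, with no overlap between matches. TGTCTC was found once in the promoters of WOX4 and WOX8 and not in the other 8, and TGTCGG in none. Of 27443 Arabidopsis promoters of that length, 10.9% hold TGTCTC and 4.16% hold TGTCGG. The promoter of WOX4, the gene of the 2 that was called without 2,4-D, is chr1:17238186-17238435 on the minus strand of TAIR10.1 and is printed in the direction of the gene, with the match to the other strand, GAGACA, in capitals.
WOX4 promoter: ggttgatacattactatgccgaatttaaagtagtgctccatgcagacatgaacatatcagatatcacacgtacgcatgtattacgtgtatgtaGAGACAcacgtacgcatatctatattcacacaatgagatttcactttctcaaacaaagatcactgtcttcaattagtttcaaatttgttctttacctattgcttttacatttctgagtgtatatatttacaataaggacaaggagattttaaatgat
A match describes these letters only, and WOX5 and WOX11, which had no read without 2,4-D, have no match in this window. WOX13, called lower without 2,4-D, has none either.

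Yucasin was used to ask what depends on auxin made by the cells themselves. At Day 4 no WOX gene was called, with WOX4 and WOX5 just short of the fold threshold, and at Day 6 WOX4 and WOX14 fell and WOX12 rose. None of 7 genes met the thresholds at Day 4 by edgeR (3.61% of loci did), although 4 had an unadjusted p, and the same number an adjusted p, under 0.05. An adjusted p under 0.05 was reached by 4490 of 19043 loci. WOX4 had 0.793, 1 and 0.927 CPM with yucasin, against 3.75, 2.12 and 5.25 CPM in controls, with no overlap (-1.97 ± 0.42, adjusted p = 0.00135). WOX5 had 1.32, 2.55 and 1.51 CPM, against 6.83, 5.38 and 9.28 CPM (-1.93 ± 0.40, adjusted p = 9.41e-04). Both missed by fold alone, and total-count scaling, which shifted all loci by -0.15, took both past it (-2.12 and -2.09). RLE size factors and DESeq2 called 1 gene each, WOX4. Leaving out replicate 5 of the controls or of the yucasin cultures also gave both calls. Vascular markers summed to 27.1 to 33.3 CPM with yucasin at Day 4, against 41.2 to 65.7 CPM in controls, and epidermal markers had a median sum of 9.52 CPM, against 2.63 CPM. Their part in the WOX levels was not tested.

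WOX13 had 20.6, 23.2 and 18.2 CPM with yucasin, against 43.5, 40.3 and 45 CPM in Day 4 controls (-1.03 ± 0.18, adjusted p = 2.35e-04). WOX2 was at 1.06, 0.546 and 0.463 CPM, against 0.22, 0.172 and 0.0682 CPM (2.07 ± 0.64, adjusted p = 0.0209). WOX11 had 3.17, 5.55 and 4.98 CPM, against 4.85, 4.06 and 4.03 CPM in controls (0.12 ± 0.26, adjusted p = 0.786), so the groups overlapped.

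At Day 6, 3 of 7 genes were called with yucasin (12.9% of loci). WOX4 had 3.03, 1.64 and 3.71 CPM, against 26.6, 22.9 and 31.6 CPM in controls and no overlap (-3.24 ± 0.33, adjusted p = 1.91e-08). WOX14 fell to 1, 1 and 2 reads, against 23, 13 and 22 in controls (-2.94 ± 0.74, adjusted p = 0.00235), and WOX12 rose to 28, 18 and 23 reads, against 2, 10 and 2 (3.10 ± 0.52, adjusted p = 8.84e-05). WOX13 had 26.2, 13.8 and 21.2 CPM, against 73.9, 66.3 and 86.9 CPM, and missed the fold threshold narrowly (-1.87 ± 0.19, adjusted p = 1.35e-08). Total-count scaling, which moved all loci by -0.48 here, put it past (-2.35). Leaving out Day 6 control replicate 7 gave 5 calls, with WOX13 (-2.01) and WOX8 added. The WOX14 call was lost without yucasin replicate 6 or 7 (adjusted p = 0.0133 and 0.0115), while WOX8 was gained without either, and WOX13 (-2.09) without yucasin replicate 6.

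WOX11 lay above controls at Day 6, with 15.4, 16.9 and 16.7 CPM against 10.9, 10 and 12.4 CPM and no overlap, but only by 0.58 ± 0.23 (adjusted p = 0.0369), and at 0.09 under total-count scaling. WOX8 had 1, 0 and 0 reads with yucasin, against 19, 10 and 23 in controls, 29.5-fold lower (5.06 to 1186), and WUS had 1 read against 17, 9.63-fold lower (1.51 to 402). Beside these results, the vascular markers summed to 18.3 to 39.7 CPM with yucasin against 146 to 196 CPM in controls, and 3 of the 4 tested were lower. Guard cell markers summed to 49.6 to 58.7 CPM against 6.92 to 13.5 CPM, and 2 of 3 were higher (FAMA and KAT1). Epidermal markers summed to 5.12 to 15.6 CPM against 0.714 to 1.29 CPM, and the 1 that could be tested was higher (FDH, 3.23 ± 0.45). The part of such cells in the WOX levels was not tested. Between Day 4 and Day 6 no WOX gene had a called difference in its response to yucasin by edgeR or DESeq2 (3.40% of loci did by edgeR), with 3 at an unadjusted p under 0.05. With no filter on low counts WOX8 was called at Day 6 too (adjusted p = 4.67e-04).

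**Figure D3:**
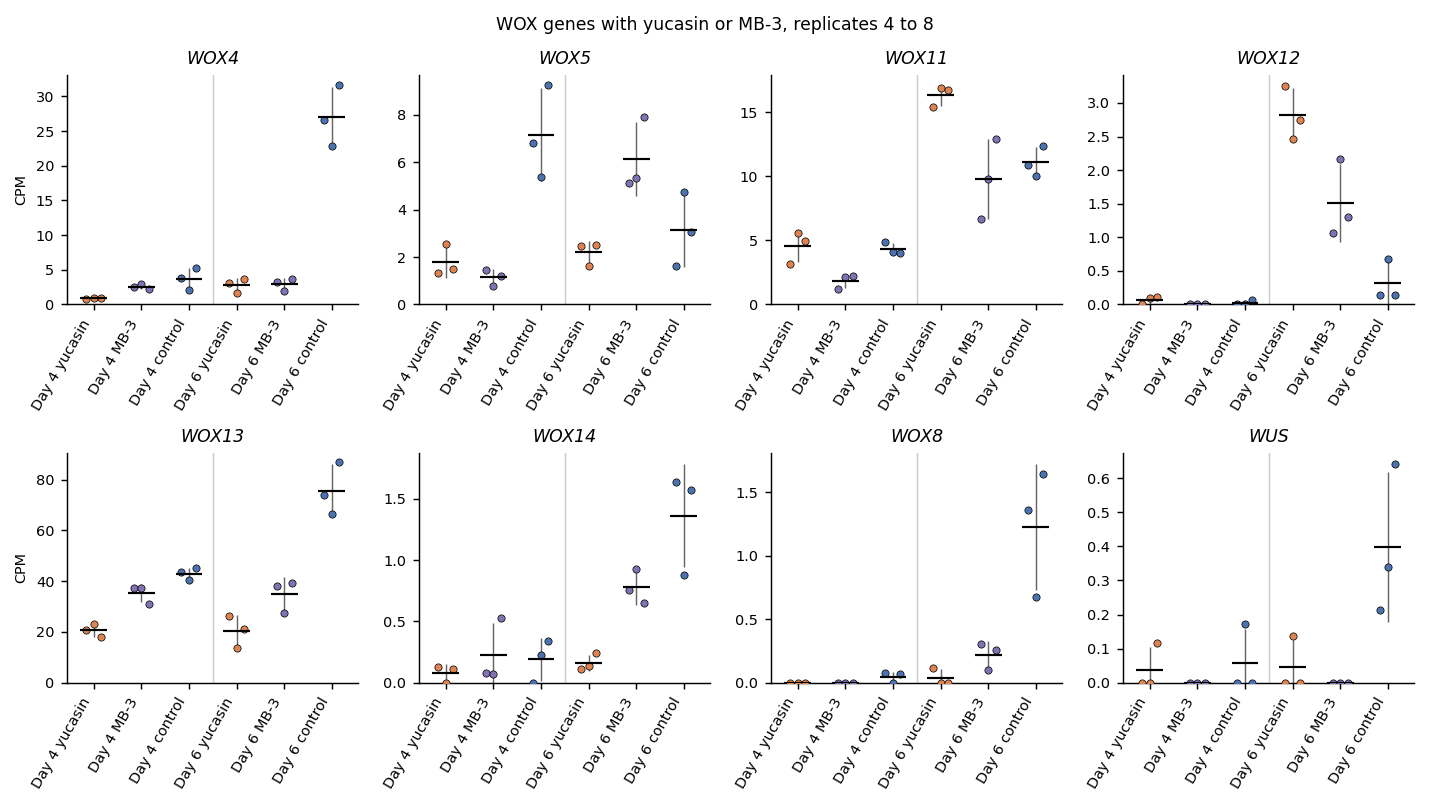
CPM (vertical axis, own range in each panel) of 8 WOX genes with yucasin, with MB-3 and in controls at Day 4 and Day 6, replicates 4 to 8, with 1 point per library, the mean as a bar and the SD as a line. At Day 6 WOX4 lies at 1.64 to 3.71 CPM with yucasin and 1.95 to 3.7 CPM with MB-3, against 22.9 to 31.6 CPM in controls, while WOX12 lies above controls with both compounds.

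MB-3 was used to ask what depends on histone acetylation. With MB-3, WOX5 was lower at Day 4, WOX4 lower and WOX12 higher at Day 6, and WUS lower and WOX12 higher at Day 14. At Day 4, 1 of 7 genes was called with MB-3 (1.30% of loci, of which 234 of 248 were lower). WOX5 had 1.44, 0.761 and 1.22 CPM, against 6.83, 5.38 and 9.28 CPM in controls (-2.67 ± 0.40, adjusted p = 1.93e-04), and the call held without each library in turn. WOX11 had 1.21, 2.14 and 2.19 CPM, against 4.85, 4.06 and 4.03 CPM, with no overlap but short of the fold (-1.24 ± 0.28, adjusted p = 0.00942). WOX4 had 2.57, 2.91 and 2.19 CPM, against 3.75, 2.12 and 5.25 CPM (-0.54 ± 0.34, adjusted p = 0.391), and WOX13 had 37.3, 37.5 and 31.2 CPM, against 43.5, 40.3 and 45 CPM (-0.30 ± 0.18, adjusted p = 0.359). Vascular markers summed to 17.7 to 20.1 CPM with MB-3 at Day 4, against 41.2 to 65.7 CPM in controls. The 4 tested ran from -1.88 for SUC2 to -1.02 for PXY on the log2 scale. Of the 3 guard cell markers 1 was called lower (MYB60, -2.86 ± 0.54), while the median log2 fold change of the 3 was 0.63. Guard cell markers summed to 8.14 to 17.5 CPM, against 13.7 to 18.2 CPM in controls. The part of such cells in the WOX5 level was not tested.

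At Day 6, 2 of 7 genes were called with MB-3 (4.22% of loci). WOX4 had 3.17, 1.95 and 3.7 CPM, against 26.6, 22.9 and 31.6 CPM in controls (-3.18 ± 0.32, adjusted p = 1.53e-07). WOX12 had 7, 21 and 20 reads, against 2, 10 and 2 (2.18 ± 0.54, adjusted p = 0.00688), a call lost without any of Day 6 control replicates 6 and 8 or MB-3 replicates 7 and 8. WOX5 now lay above controls, with 5.14, 5.35 and 7.92 CPM against 1.64, 4.74 and 3.06 CPM (0.97 ± 0.36, adjusted p = 0.0488). WOX13 had 38.2, 27.6 and 39.4 CPM, against 73.9, 66.3 and 86.9 CPM (-1.11 ± 0.18, adjusted p = 5.33e-05). WOX11 had 6.65, 9.77 and 12.9 CPM, against 10.9, 10 and 12.4 CPM, with overlap (-0.16 ± 0.23, adjusted p = 0.668). WOX8 had 2, 1 and 4 reads, against 19, 10 and 23, and WUS had none against 17, at least 1.25-fold lower. Vascular markers summed to 27.6 to 62.4 CPM with MB-3 against 146 to 196 CPM in controls, and 2 of 4 were called lower (PXY and ATHB8). Their part in the WOX4 level was not tested.

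The response to MB-3 differed between the days for 2 of the 7 genes, where 0.446% of loci passed the same test. WOX4 responded more at Day 6 than at Day 4 (difference -2.64 ± 0.47, adjusted p = 0.00205), and was among 3 loci with such a called negative difference. WOX5 moved the other way (3.64 ± 0.55, adjusted p = 8.68e-04), among 82 with a positive one. WOX4 was not called without MB-3 Day 4 replicate 5 (adjusted p = 0.0115) or without replicate 5 or 7 of every group (0.0244 and 0.0128). Without replicate 4 or replicate 8 neither call held (adjusted p 0.0312 and 0.0212 for WOX4, 0.0166 and 0.0171 for WOX5), and the differences ranged from -3.15 to -2.24 for WOX4 and from 3.24 to 4.16 for WOX5 over all libraries left out. The 2 compounds shared their control libraries, and at Day 6 WOX4 stood at -3.24 ± 0.33 with yucasin and -3.18 ± 0.32 with MB-3.

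At Day 14 WUS was lower and WOX12 higher than in controls, the 2 genes called of 8 tested (5.28% of loci). WUS had 3, 4 and 6 reads with MB-3, against 68, 91 and 238 in controls (-4.30 ± 0.78, adjusted p = 0.00306). The groups were far apart in every library, but with 1 library fewer the call was lost for each of 5 libraries, all those of the MB-3 group and control replicates 1 and 3 (adjusted p 0.0113 to 0.019), and the log2 fold change stayed between -4.67 and -4.02. WOX12 had 355, 199 and 287 reads (42.7, 15.2 and 19.8 CPM), against 14, 23 and 43 reads (1.58, 1.02 and 1.83 CPM) in controls (4.11 ± 0.53, adjusted p = 3.91e-04), and this call held without each library. WOX11, its relative in the sequences above, went the other way, with 6.61, 14.2 and 14.4 CPM against 28, 47.4 and 31.8 CPM and no overlap, at -1.61 ± 0.41 (adjusted p = 0.0185), not past the thresholds. Of the reads on WOX11 and WOX12 together, WOX12 took the larger part in all 3 MB-3 libraries (355 against 55, 199 against 186 and 287 against 208 reads) and the smaller part in all 3 controls. Vascular markers summed to 56 to 183 CPM with MB-3 at Day 14, against 189 to 208 CPM in controls, and none of the 6 was called. The sums of the mesophyll, epidermal and guard cell markers overlapped between the groups. The part of such cells in the WOX levels was not tested.

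The remaining genes differed less at Day 14. WOX4 had 4.81, 11.1 and 16.2 CPM with MB-3, against 17.9, 16.8 and 14 CPM (-0.59 ± 0.39, adjusted p = 0.297), WOX8 had 3.13, 6.1 and 7.18 CPM, against 4.85, 4.14 and 4.33 CPM (0.30 ± 0.52), and WOX13 had 14.2, 22 and 26.3 CPM, against 29.8, 34.1 and 40.2 CPM (-0.74 ± 0.39, adjusted p = 0.192). WOX14 was at 1.68, 1.3 and 2.55 CPM, against 3.72, 2.09 and 2.21 CPM (-0.52 ± 0.60), and WOX2 at 0.481, 2.36 and 2 CPM, against 0.338, 0.49 and 0.765 CPM (1.55 ± 0.66, adjusted p = 0.109). WOX5 stayed at 1, 3 and 7 reads, against 3, 1 and 12 in controls, and WOX9 had none. Against Day 0, 5 of 8 genes were called with MB-3 at Day 14 (32.2% of loci): WOX12 at least 35.1-fold, WOX11 at least 15.9-fold, WOX8 at least 7.41-fold, WOX14 7.74-fold (2.54 to 38.5) and WOX4 (4.28 ± 0.62). Each of these counts rested on the same 3 Day 0 libraries as those of the controls. WOX8, WOX11 and WOX12 had no read in those libraries and could only be higher. The WOX14 call was lost without a filter on low counts (adjusted p = 0.011) and without any of Day 0 replicates 1 and 2 or any MB-3 library (adjusted p 0.0213 to 0.0582).

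**Figure D4:**
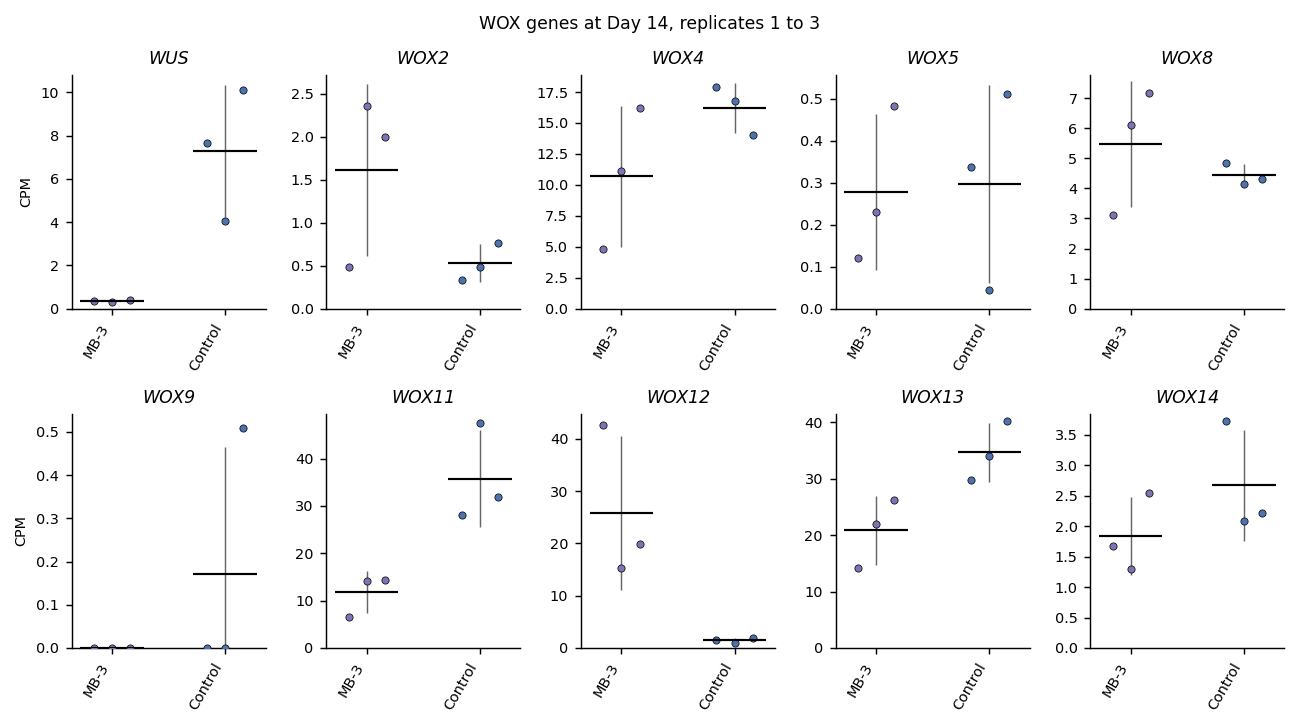
CPM (vertical axis, own range in each panel) of the 10 WOX genes at Day 14 with MB-3 and in controls, replicates 1 to 3, with 1 point per library, the mean as a bar and the SD as a line. WUS lies at 0.305 to 0.414 CPM with MB-3 against 4.05 to 10.1 CPM in controls, and WOX12 at 15.2 to 42.7 CPM against 1.02 to 1.83 CPM.

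Genes that act with the WOX factors were followed as lists. Of 13 CLE peptides and receptors, 10 could be tested in replicates 4 to 8, and 5 rose and none fell from Day 0 to Day 6, close to the share of all loci called (43.8%), with a median log2 fold change of 2.07 against 0.34 over all loci. The largest were the PXY ligand CLE44 (6.04 ± 0.25), the receptors BAM1 (5.71 ± 0.26) and CLV2 (5.05 ± 0.36). Of 11 tested, 8 were lower at Day 0 than in leaves (34.2% of loci were called, median -3.36 against -0.56 over all loci), led by BAM3, CLV1 and BAM1. In the same comparison 5 of 6 vascular, 2 of 2 epidermal and 3 of 3 guard cell markers tested were lower, and their part in the CLE and receptor levels was not tested. With yucasin at Day 6, 2 of 10 fell (12.9% of loci were called), the receptor components CRN (-2.91 ± 0.38) and PXY (-2.40 ± 0.25), and the same pair fell with MB-3 (4.22% of loci called, PXY -2.76 ± 0.25, CRN -2.12 ± 0.35). CLE44 averaged 55 ± 5.4 CPM with yucasin and 38.6 ± 7.16 CPM with MB-3, against 42.4 ± 3.27 CPM in Day 6 controls (SD, n = 3 each). CLV3, the peptide that WUS turns on and that limits WUS in the shoot meristem, had no more than 7 reads in any Day 14 library, a count that could not be told from background.

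Of 9 genes for co-repressors (TPL and TPR) and HAM cofactors, 2 rose and 2 fell from Day 0 to Day 6, a share like that of all loci (43.8%, median -0.68, against 0.34): the WUS partner HAM2 (4.97 ± 0.26) and HAM3 (3.14 ± 0.23) rose and the co-repressors TPL (-2.44 ± 0.15) and TPR4 fell. None of the 9 was called with yucasin, MB-3 or without 2,4-D against Day 4 or Day 6 controls. Of all loci, 3.61% and 12.9% were called with yucasin at Day 4 and Day 6, 1.30% and 4.22% with MB-3, and 3.39% without 2,4-D. With these shares, the lack of calls among 9 genes does not set them apart. Of 12 regulators and targets, 9 could be tested in replicates 4 to 8, and 4 rose and 1 fell from Day 0 to Day 6 (43.8% of loci were called). With yucasin at Day 4, 1 of 9 was lower, CDF4 (-2.08 ± 0.46), where 3.61% of loci were called. SHR, which moves between root cells and sets the stem cell niche with SCR, was the 1 of 9 that was lower with MB-3 at Day 4 and at Day 6 and with yucasin at Day 6. Of all loci 1.30%, 4.22% and 12.9% were called in these comparisons, so the count with yucasin was close to the share of all loci. It fell with MB-3 at Day 4 (-2.50 ± 0.44), Day 6 (-5.30 ± 0.51) and Day 14 (-3.14 ± 0.42), with yucasin at Day 6 (-3.58 ± 0.43) and without 2,4-D (-5.43 ± 0.90), and missed the fold threshold with yucasin at Day 4 (-1.97 ± 0.45). At Day 14 the cytokinin response gene ARR15 was higher with MB-3 (2.16 ± 0.47, adjusted p = 0.00595). Of the 11 regulators and targets tested in that comparison, 1 was called lower and 1 higher (5.28% of loci were called). Without 2,4-D 1 of 8 was called, lower than in Day 4 controls (3.39% of loci). The 5 WOX genes outside the set gave few reads: PRS and WOX10 had none in replicates 4 to 11, and WOX1 fell from Day 0 to Day 6 (-3.08 ± 0.59).

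The loci with the most similar course to each WOX gene were found by Pearson correlation of mean log2(CPM + 1) over the 15 combinations of group and experiment, among 20866 loci. These points share libraries and scaling, so the values describe likeness only. WUS was closest to WRKY38, MLP31 and AT2G18210 (0.989 to 0.987), WOX4 to PIP2;5, AT5G50090 and AT4G23720 (0.973 to 0.971), and WOX5 to SWEET9 (0.953), AT1G30515 and AT1G10640. WOX8 was closest to AT3G12410, AT3G42860 and MYB92, WOX11 to PDF2.1, AT3G19200 and AT1G21990, and WOX12 to AT5G43040, AT2G32360 and AT5G51490. WOX13 was closest to AT2G22900, GLYR1 and AT4G39170, WOX14 to HB51, OCT2 and AT1G27890, and WOX2 to AT1G80960, AT5G17910 and AT5G43930. No WOX gene was among the 3 closest of another.

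**Figure D5:**
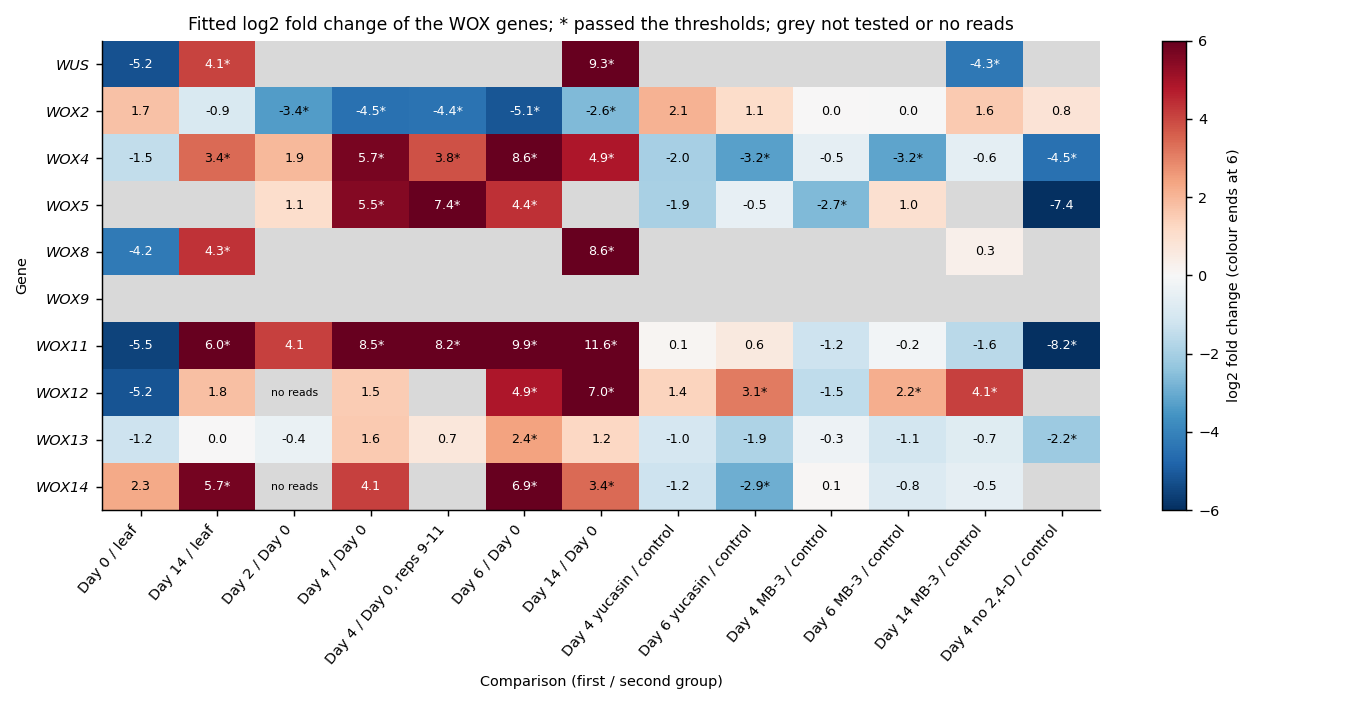
Fitted log2 fold change (colour and number) of each WOX gene (rows) in 13 comparisons (columns, the first-named group over the second), with a star where the thresholds were met and grey where the gene was not tested or had no reads. Values against a group with no read depend on the prior count of the fit and are no fold estimate. WOX4 is starred below 0 with yucasin and MB-3 at Day 6 and without 2,4-D, and WOX12 above 0 with yucasin and MB-3 at Day 6 and with MB-3 at Day 14.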

How the data were processed

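The deposited files hold whole-number counts of reads per splice variant, 1 file per library. Per the labels and the methods of the study, RNA was sequenced single-end after stranded mRNA library preparation, and the authors mapped reads with Bowtie 0.12.9 to TAIR10. Whether counting used strand is not given in the sources used here. The tables of replicates 1 to 3 and 4 to 8 list only variants with a read in some library, so an unlisted locus was set to 0.

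The lowest-numbered variant of each of 28197 loci was kept. Each experiment was fitted with edgeR 4.0.16 in R 4.3.3 (TMM scaling, filterByExpr, quasi-likelihood test, Benjamini-Hochberg adjustment over all loci tested), with all its groups and without a replicate block. A gene was called at an absolute log2 fold change over 2 with p and adjusted p under 0.01. Standard errors are the log2 fold change over the root of F. CPM values were scaled by TMM over all 47 libraries together, and means carry the SD. TMM factors were 0.45 to 0.66 at Day 0 and 0.92 to 1.64 in cultures. Against a group without reads a bound was computed with 3 counts per library, and against 1 to 3 reads the ratio with an exact 95% interval. DESeq2 1.42.0 was an alternative. The scripts were tested on simulated data. Sequences are from RefSeq, TAIR10.1, matched by locus for all 10 genes, and 1 of the third-helix sequences is not reported here.

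All 10 WOX genes are named, with the at most 3 largest called changes per companion list and the 3 loci most alike. The genes, lists and tests were chosen with earlier results of these data known. Nothing beyond the group labels says that equal replicate numbers mark the same isolation, and the numbers were taken to pair the samples where every pair's deviations correlated above 0.1: MB-3 and controls at Day 4 (lowest 0.157) and Day 6 (0.183), yucasin and controls at Day 4 (0.115), and the media with and without 2,4-D (0.191).

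Alternatives were total-count scaling, RLE size factors, DESeq2, no low-count filter, all splice variants summed, the replicate block, an adjusted p under 0.05 alone, and leaving out each replicate number. Leaving out each single library was added after the data had been seen.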

Additional observations from a re-analysis of the deposited data

Results flagged for a closer look

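The response to a compound differed between Day 4 and Day 6 for 3 genes at an adjusted p under 0.05 in the test of the difference itself. With MB-3 the difference (Day 6 minus Day 4) was -2.64 for WOX4 (adjusted p = 0.00205) and 3.64 for WOX5 (adjusted p = 8.68e-04), both past the thresholds. With yucasin it was -0.84 for WOX13 (adjusted p = 0.021), which is under the fold threshold and became -1.17 under total-count scaling (adjusted p = 0.00325). No library stood apart in the 8 groups of gene and samples large enough to examine.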

How the results depend on the processing

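Of single-gene values, 442 kept their direction and side of the thresholds under another scaling, tool, filter, sum of variants or block, 20 gained a call, 5 lost one and 1 reversed: WOX13 at Day 2 against Day 0 turned to 0.41 with total-count scaling. That scaling moved the median of all loci in the comparison of Day 2 with Day 0 by 0.8. The cause was not tested beyond this. Leaving out libraries kept 692, gained 19, lost 91 and reversed 0.

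The number of WOX genes called changed by more than 1.5 times as follows. With only an adjusted p under 0.05 it was 2 for Day 0 against leaf, 3 for Day 2, 5 for Day 4 against Day 2, 6 for Day 6 against Day 4, 4 and 5 for yucasin at Day 4 and Day 6, 2 and 4 for MB-3 at Day 4 and Day 6, 1 for the yucasin difference between days and 2 for no 2,4-D against Day 0. All loci passing that rule were, in the same order, 14089 of 20205, then 14495, 11424, 6072, 4490, 11214, 1369, 5226 and 4613 of 19043, and 10941 of 17665. Total-count scaling gave 2 for Day 0 against leaf, 2 for Day 2 and 2 for yucasin at Day 4. DESeq2 gave 1 for Day 0 against leaf and 1 for yucasin at Day 4, as did RLE size factors (1), and summing variants gave 2 for Day 2. Smaller changes came with DESeq2 (4 for Day 4 against Day 2 and for no 2,4-D against controls) and total-count scaling (6 for Day 4 against Day 0, 4 for Day 4 against Day 2 and for yucasin at Day 6), among others.

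With a replicate block, Day 6 against Day 4 had 1 call, WOX14 having lost it (1.95, adjusted p = 0.0668). Where numbers do not pair the samples, the block also dropped WOX12 at Day 6 and WOX14 with MB-3 at Day 14 against Day 0, and added WOX14 at Day 4. Where they do, it changed no call but that of WOX5 without 2,4-D.

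Leaving out libraries gave 4 to 6 calls for Day 14 against Day 0, 3 to 6 for Day 14 against leaf, 1 to 2 for MB-3 against controls at Day 14, 1 to 2 for Day 2, 1 to 3 for Day 6 against Day 4, 0 to 2 for yucasin at Day 4, 2 to 5 for yucasin at Day 6, 1 to 3 for MB-3 at Day 6, 0 to 2 for the MB-3 difference between days, 2 to 4 for Day 4 against Day 0 in replicates 9 to 11, 0 to 1 for no 2,4-D against Day 0 and 0 to 4 against controls. Genes with fewer than 3 reads per library could not be told from 0.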
